A study of Mus musculus with 2 samples.

Results

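The Armcx genes are 6 armadillo-repeat genes of the mouse X chromosome, and their transcripts were followed in 2 CD4 T cell cultures, each hybridised to a single Affymetrix array. The members were every probe set that the platform annotation assigned to exactly 1 gene with the symbol Armcx1, Armcx2, Armcx3, Armcx4, Armcx5 or Armcx6, which gave 9 of the 45037 probe sets on each array. The family was chosen by its ratios between these same arrays, so the levels and ratios of its members are a description and no test is attached to them.

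Wild-type CD4 T cells from spleens of C57BL/6 mice, with a purity above 98% per the labels' protocols, were stimulated through the T cell receptor and CD28 for 2 days and cultured for 3 more days. The CD103+ Th1 culture received 3 ng/ml of IL-4, 10 ng/ml of IFN-γ and 3 ng/ml of TGF-β, and the Th1 culture 1 ng/ml of IL-12 with 1 µg/ml of the IL-4 antibody 11B11. The ages and number of mice are not given in the sources used here, and each culture has 1 array, so no replicate error can be given for any value below, and the number of arrays limits the precision. In such cultures fewer cells with a transcript and less of it per cell cannot be told apart.

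Armadillo repeats are short helical units that stack into a surface for binding other proteins, as in β-catenin. The Armcx genes belong to placental mammals and are thought to have arisen on the X chromosome from a copy of the autosomal gene Armc10. Armcx3 protein sits on the outer mitochondrial membrane, where in neurons it binds the Miro and Trak proteins that tether mitochondria to motors, and Armcx1 is known for promoting mitochondrial transport and axon regeneration. Armcx1 and Armcx2 are also called Alex1 and Alex2, names given because their transcripts are reduced in many carcinomas.

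Transcripts of 5 of the 6 Armcx genes had lower signals in CD103+ Th1 than in Th1, and Armcx5 had nearly the same signal on both arrays. Armcx6 was 4.48-fold lower, Armcx2 2.76-fold on its brightest probe set and Armcx1 2.15-fold. Armcx3 was 1.92-fold lower on its brightest probe set and Armcx4 1.77-fold, both under 2-fold. All 9 probe sets lay above a floor of 78.5 on both arrays, the median over both arrays, so no ratio of a member is a bound. A probe set counted as measured where either array exceeded the floor. Past 2-fold, 4 of the 9 Armcx probe sets were lower and 0 higher. Among all 24036 measured probe sets, 3.91% were lower by 2-fold or more and 5.25% higher by 2-fold or more. By gene, 3 of 6 members were past 2-fold lower and 0 higher, against 4.87% and 5.04% of 11194 measured genes, each represented by its brightest probe set. The median log2 ratio, CD103+ Th1 over Th1, was -1.02 over the 6 genes and -0.03 over all measured genes. Because the contrast served to choose the family, nothing is read from these shares.

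**Figure D1:**
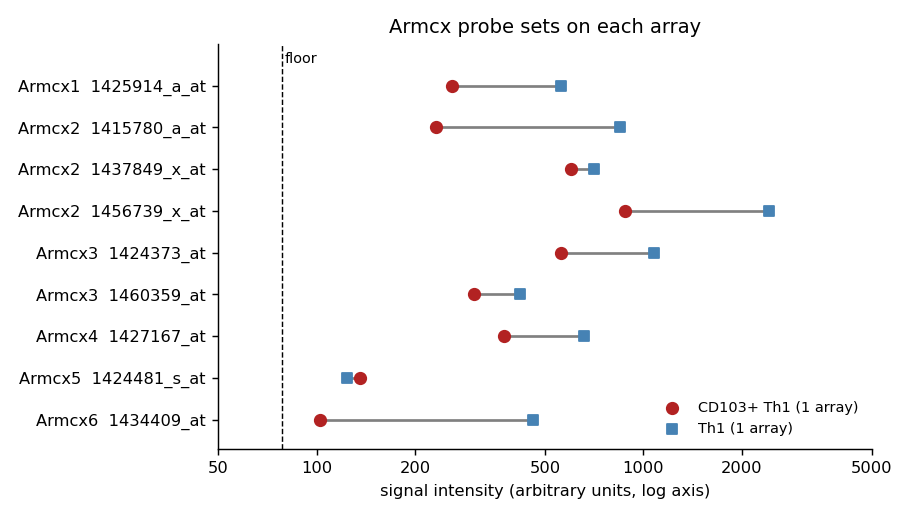
Signal intensity of the 9 Armcx probe sets (log axis, arbitrary units) on the CD103+ Th1 array (red circles) and the Th1 array (blue squares), with the floor of 78.5 as a dashed line. In 8 of 9 probe sets the Th1 signal is the higher one, and the Armcx5 pair, at 136 and 124, lies close together.

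Armcx6 had the lowest ratio of the family. Its 1 probe set, 1434409_at, gave a signal of 102 in CD103+ Th1 and 458 in Th1, a log2 ratio of -2.16. The CD103+ Th1 signal was only 1.30 times the floor, whereas the Th1 signal was 5.84 times the floor. Of all measured probe sets, 0.387% had a lower ratio than this one.

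Armcx2 was represented by 3 probe sets, and they disagreed in size while all lay below 0. On 1456739_x_at the signal was 877 in CD103+ Th1 against 2421 in Th1, a log2 ratio of -1.47. The probe set 1415780_a_at had 232 and 850.5, 3.67-fold lower, with a log2 ratio of -1.88. The third, 1437849_x_at, had 601 and 705, 1.17-fold lower, with a log2 ratio of -0.23. The suffix _x_at marks probe sets in which some probes can also bind other transcripts, and _a_at those whose probes are shared among transcripts of 1 gene. The ratios of the 3 probe sets spanned 1.65 on the log2 scale. Among 1342 genes with 3 measured probe sets the median span was 0.45, and 98.3% of them had a smaller span than Armcx2. The mean log2 ratio over the 3 probe sets was -1.19.

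Armcx1, the gene linked to axonal mitochondria, had 1 probe set, 1425914_a_at. Its signal was 260 in CD103+ Th1 and 560.1 in Th1, with a log2 ratio of -1.11, close to the 2-fold threshold. About 3.00% of measured probe sets had a lower ratio.

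Armcx3, which encodes the Miro-binding member, had 2 probe sets drawn from the same transcript record. The brighter one, 1424373_at, read 560.3 in CD103+ Th1 against 1076 in Th1, with a log2 ratio of -0.94. The dimmer one, 1460359_at, had 304 and 419, 1.38-fold lower, with a log2 ratio of -0.46. Both lay below 0 and under 2-fold, and their span of 0.48 compares with a median span of 0.26 over 2968 genes with 2 measured probe sets. Their mean was -0.70.

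Armcx4 had 1 probe set, 1427167_at, which read 374 in CD103+ Th1 against 660.4 in Th1, with a log2 ratio of -0.82. Armcx5 stood apart from the others in direction. Its 1 probe set, 1424481_s_at, had signals of 136 and 124, 1.10-fold higher in CD103+ Th1, with a log2 ratio of 0.13. The suffix _s_at marks probe sets whose probes match several transcripts, and both signals were near the floor, at 1.73 and 1.58 times it.

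**Figure D2:**
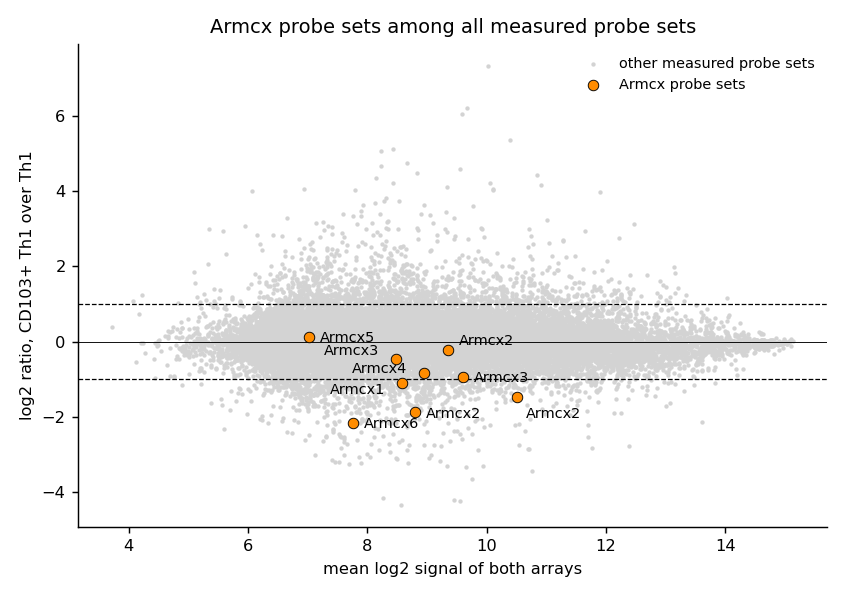
Log2 ratio, CD103+ Th1 over Th1, against the mean log2 signal of both arrays for all 24036 measured probe sets (grey) and the 9 Armcx probe sets (orange), with dashed lines at 2-fold. The 4 Armcx points below the lower line are Armcx6, 2 probe sets of Armcx2, and Armcx1.

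The brighter signal of the Armcx probe sets ranged from 136 to 2421. Among the 16199 measured probe sets with a brighter signal in that range, 5.03% were at least 2-fold lower in CD103+ Th1 and 6.48% at least 2-fold higher, with a median log2 ratio of 0.05.

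The direction of each Armcx ratio held under every alternative that gave one, but the size did not. A floor at the 75th percentile, 472, left Armcx1 at -0.25 and gave Armcx5 and Armcx6 no ratio, so that 1 Armcx gene, Armcx2, was at least 2-fold lower there. Other scalings left Armcx1, Armcx2 and Armcx6 past 2-fold.

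**Figure D3:**
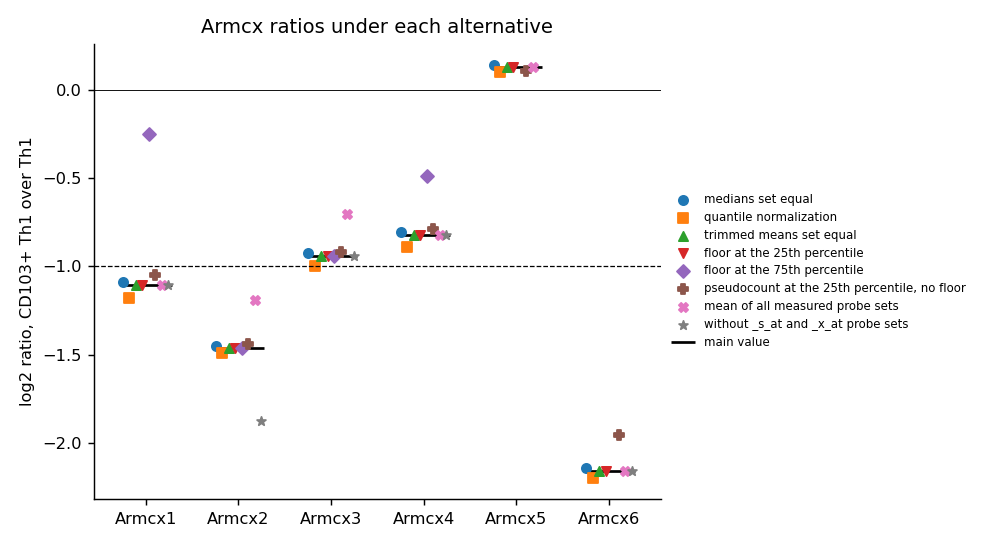
Log2 ratio, CD103+ Th1 over Th1, of each Armcx gene under 8 other ways of processing (symbols) beside the reported value (black bar), with a dashed line at 2-fold lower. Armcx1 moves above the line with the floor at the 75th percentile, at -0.25, and Armcx2 ranges from -1.88 to -1.19 with the probe sets used.

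Promoter sequences of 5 members were found in the RefSeq table of GRCm38.p6, and Armcx3 had none there. The table covers 250 bases before to 50 bases after a listed start, which need not be the outer end of the gene. The stretches from 100 bases before the start to 20 after it are shown because 3 of the members share words there. Capitals mark the E-box CACGTG, a site type of bHLH factors, and TGACG, the core of the cyclic AMP response element, searched on both strands.
Armcx1 (chrX:134717838-134717957, plus strand): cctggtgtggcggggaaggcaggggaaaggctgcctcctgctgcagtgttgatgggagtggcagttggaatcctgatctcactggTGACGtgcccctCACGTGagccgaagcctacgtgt
Armcx6 (chrX:134751400-134751519, minus strand): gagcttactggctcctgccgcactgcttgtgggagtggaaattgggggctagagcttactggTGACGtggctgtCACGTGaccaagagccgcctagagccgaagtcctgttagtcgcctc
Armcx4 (chrX:134686419-134686538, plus strand): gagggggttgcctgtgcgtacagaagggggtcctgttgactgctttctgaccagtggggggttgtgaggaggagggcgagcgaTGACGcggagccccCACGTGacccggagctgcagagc
Armcx5 (chrX:135742592-135742711, plus strand): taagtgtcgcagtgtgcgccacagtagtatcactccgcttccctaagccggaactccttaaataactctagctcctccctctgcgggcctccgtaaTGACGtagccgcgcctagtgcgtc
Armcx2 (chrX:134809202-134809321, minus strand): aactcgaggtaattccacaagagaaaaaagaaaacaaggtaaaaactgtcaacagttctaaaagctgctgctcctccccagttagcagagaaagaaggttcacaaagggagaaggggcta
Armcx1, Armcx6 and Armcx4 each held CACGTG near the start, with TGACG a short way before it. CACGTG began 3 bases before the listed start in Armcx1 and Armcx4 and 26 bases before it in Armcx6. The stretches of Armcx6 and Armcx4 lie wholly inside the spans of these genes, 134748455-134756666 and 134685650-134697775. The stretch of Armcx1 begins before the span of this gene, 134717913-134721917, but its listed start and its TGACG and CACGTG lie inside that span. The listed starts of these 3 genes are therefore not at the outer ends of the genes. Armcx5 held TGACG without CACGTG, and Armcx2 held neither. The span of Armcx5 begins at the same base as that of the gene Gprasp1, 135742692, and lies within it. CACGTG was present in 7.15% of the 32851 promoters of the table and TGACG in 20.8%. A TGACG starting 10 to 16 bases before a CACGTG, a spacing set after these promoters were read, was present in 46 promoters, 0.140%. Armcx1 and Armcx6 also shared the 12-base word ACTGGTGACGTG and the spaced pattern TGACGTGNCNNTCACGTGA, each found in their 2 promoters and in 0 others of the table. Both were read from these 2 promoters, so presence in both was fixed beforehand. Absence elsewhere is likely for patterns this long, and nothing is read from it. These are matches of letters and no evidence of binding.

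Words tied to IL-4 and TGF-β, cytokines of the CD103+ Th1 medium, were searched in the same 300-base promoters on both strands. TTCNNNNGAA, the type bound by STAT6 downstream of IL-4, occurred in 0 of the 5 and in 6.95% of all. CAGAC, which contains the SMAD core, occurred in Armcx1 and Armcx4 and in 49.6% of all promoters. The full cyclic AMP response element TGACGTCA, which contains TGACG, occurred in 0 of the 5 and in 1.79% of all.

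In the gene order of the GRCm38.p6 table the members run as Armcx4, Armcx1, Armcx6, Armcx3 and Armcx2 close together, then 29 other genes, mostly pseudogenes and genes with no named probe set, and then Armcx5. The 5 adjoining members were the ones with lower signals. Among them, the spans of Armcx6 and Armcx3 overlap by 115 bases, so these 2 are not separate in position. Of the 41 other genes that lay between members or within 5 genes of one, 10 had a named probe set and 4 were measured. Of these 4, 0 were at least 2-fold different, beside 4.87% lower and 5.04% higher over all measured genes. The 4 were Hnrnph2 at 1.05-fold higher (3390 against 3225), Zmat1 at 1.16-fold higher (426 against 366), Gprasp1 at 1.05-fold lower (373 against 393) and Nxf2 at least 1.26-fold lower (74.5, under the floor, against 99.1). Hnrnph2, an RNA-binding protein gene, and Zmat1, a zinc-finger gene, are the nearest measured genes above the floor on either side of the lower group. Gprasp1 overlaps Armcx5, so these genes are not separate in position.

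Over a wider stretch of 12 measured genes before the first and 12 after the last member, 26 genes outside the family were measured. Of these, 21 had ratios below 0, and their median log2 ratio was -0.36. Over all X-linked genes outside the family, 181 of 334 measured genes were below 0. Past 2-fold, 4 of the 26 were lower and 1 was higher, beside 4.19% and 3.89% of the 334 genes. The lower ones were Tspan6 at -1.47, Bex1 at -1.27, Timm8a1 at -1.20 and Dach2 at -1.08, and the higher one Diaph2 at 2.07. A ratio with 1 array under the floor is a bound here too. Over the whole X chromosome, 5.00% of 340 measured genes were at least 2-fold lower, and 4.85% of 10839 genes on other chromosomes. Without the Armcx genes the X chromosome had 14 of 334 measured genes at least 2-fold lower and a median of -0.03. Xist, the RNA of the inactive X chromosome, read 19092 in CD103+ Th1 against 19219 in Th1, and the Y-linked genes Eif2s3y, Kdm5d and Uty lay under the floor on both arrays.

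**Figure D4:**
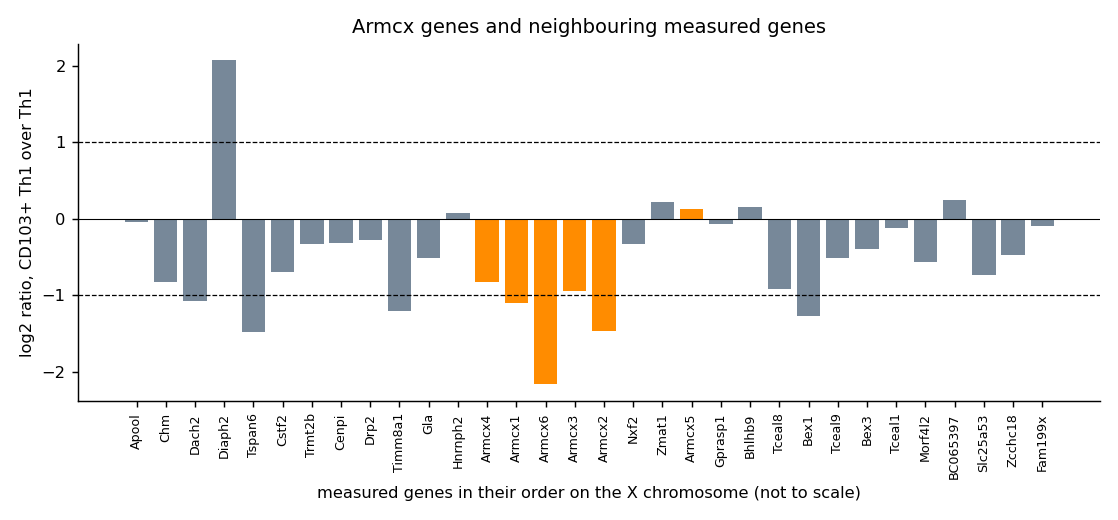
Log2 ratio, CD103+ Th1 over Th1, of measured genes in their order on the X chromosome, the 6 Armcx genes in orange and 26 others in grey, with dashed lines at 2-fold. A gene under the floor on 1 array is drawn at its bound. The 5 adjoining Armcx genes are part of a run of bars below 0 that follows Hnrnph2 at 0.07 and takes in Nxf2 at -0.34. Genes outside the family form such runs too, as from Tspan6 at -1.47 through Timm8a1 at -1.20 to Gla at -0.51.

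Of the nearest relatives of the family, 3 were measured. Armc10, the autosomal gene thought to be their source, was 1.54-fold lower, at 1320 in CD103+ Th1 against 2038.5 in Th1. The related X-linked genes Bhlhb9 and Gprasp1 had log2 ratios of 0.16 and -0.08, and Gprasp2 lay under the floor on both arrays. Of the 3 measured relatives, 0 were at least 2-fold lower and 0 higher, beside 4.87% and 5.04% of all measured genes. With so few genes, nothing is read from this count.

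The 5 measured Bex and Tceal genes are X-linked and lie beyond Armcx5 in the gene order. They are among the 26 genes of the wider stretch above, so they are not a separate observation. All 5 were below 0, with a median of -0.51, and so were 5885 of all 11194 measured genes. Ratios of list genes under the floor on 1 array are bounds here too. Bex1, an adaptor in neurotrophin receptor signalling, was 2.42-fold lower (81.2, close to the floor, against 196). It was the only one of the 5 past 2-fold with this floor, beside 4.87% lower and 5.04% higher over all measured genes. With the floor at the 25th percentile, 3 genes of the list were at least 2-fold lower, but the count over all genes also rose, from 545 to 1206. Tceal8 was at least 1.88-fold lower (51.0, under the floor, against 148). Tceal9 was 1.43-fold lower (3885 against 5542) and Bex3, which encodes a death-domain-binding adaptor of the neurotrophin receptor, 1.31-fold lower (3604 against 4728).

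The 15 measured genes of mitochondrial transport had a median log2 ratio of -0.04. Past 2-fold, 1 was higher and 0 lower, beside shares over all measured genes of 5.04% and 4.87%. The genes of the partners of Armcx3 were near 0, with log2 ratios of -0.03 for Rhot1 and 0.07 for Rhot2, which encode Miro proteins, and -0.04 for Trak1 and -0.19 for Trak2, which encode the motor adaptors. Klc4, for a kinesin light chain, was 2.12-fold higher (530.4 against 251), although its 2 probe sets ranged from 0.52 to 1.08 and their mean was under 2-fold. The kinesin gene Kif1b was 1.43-fold higher, Kif5c at least 1.41-fold lower and the myosin gene Myo19 at least 1.39-fold lower. The Kif1b probe sets ranged from -0.54 to 0.52.

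Genes of mitochondrial fusion and fission had 0 of 16 measured members past 2-fold and a median of -0.07. The shares over all measured genes were 5.04% higher and 4.87% lower. The protease gene Oma1, whose product cleaves Opa1 under stress, was 1.83-fold lower (774 against 1419). Yme1l1, for another Opa1-cleaving protease, was 1.75-fold lower, though its 4 probe sets gave log2 ratios between -0.81 and 0.75. Immt, a cristae organiser, was 1.45-fold lower and Mief2, a receptor for the fission enzyme, 1.33-fold higher.

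Other genes with armadillo or related repeats had a median of 0.03, and 3 of 21 measured members were past 2-fold higher and 0 lower, beside 5.04% and 4.87% of all measured genes. The median changed sign with the scaling and the choice of probe set, to -0.03 after quantile normalization and -0.24 with the mean of all probe sets. Armc7 was 4.41-fold higher (1503 against 341), Armc3 2.72-fold higher (392 against 144) and Armc5 2.15-fold higher (355 against 165). Armc6 was 1.69-fold lower. With the floor at the 75th percentile, 1 of the list was past 2-fold higher. Ctnnb1, which encodes β-catenin, had a log2 ratio of 0.44.

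Among targets of Wnt and β-catenin signalling, 0 of 6 measured genes passed 2-fold, with a median of -0.02. Over all measured genes, 5.04% were past 2-fold higher and 4.87% lower. Axin2, a feedback inhibitor of the pathway, was 1.70-fold higher (246 against 144) and the transcription factor gene Lef1 had a log2 ratio of 0.59, while Myc was 1.63-fold lower and the cyclin gene Ccnd1 1.49-fold lower.

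**Figure D5:**
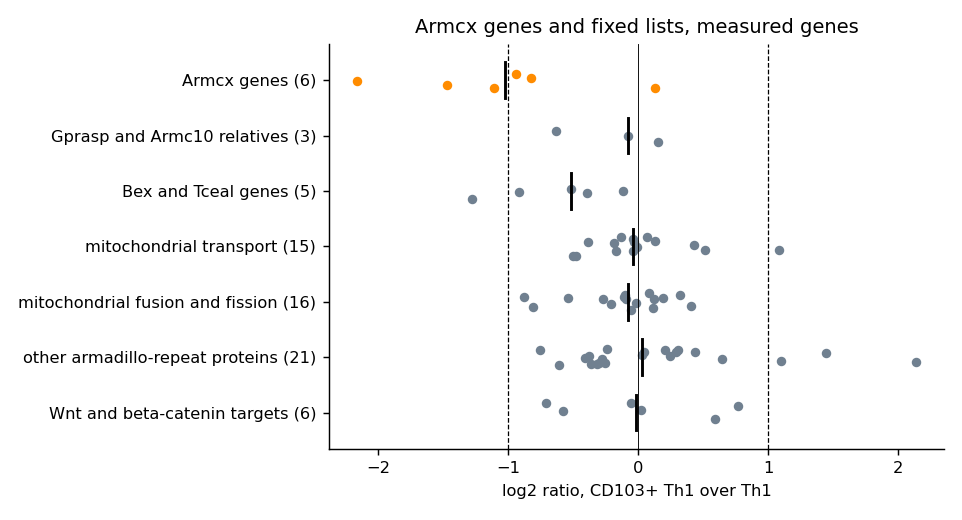
Log2 ratio, CD103+ Th1 over Th1, of the measured genes of each list (points, number in parentheses, vertical position within a row without meaning), with the median as a black bar and dashed lines at 2-fold. Genes under the floor on 1 array are at their bound. The Armcx median of -1.02 lies left of the other medians, which range from -0.51 to 0.03.

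Markers of CD4 T cells were above the floor on both arrays in 9 of 9 genes with a named probe set, Cd4 among them, and their signals summed to 68298 in CD103+ Th1 against 61024 in Th1. Because several Armcx genes are best known from neurons, markers of neurons and of other cells were read too. Of 7 neuron and glia markers, 2 lay above the floor in each culture, and Snap25, Syt1, Map2 and Gfap lay under it on both arrays. The neuronal gene Rbfox3 read 59.1, under the floor, in CD103+ Th1 against 113 in Th1, and Tubb3 read 104.5 against 46.4, under the floor. The 7 markers summed to 2927 in CD103+ Th1 and 2068 in Th1, of which Mbp, also expressed by lymphocytes, gave 2631 and 1744. Of 8 fibroblast markers, 6 lay under the floor on both arrays, Col1a1, Col3a1, Pdgfra and Dcn among them. Thy1, which T cells express, made up most of the sums of 22064 and 20652. Of the 5 B cell, 9 myeloid and 6 endothelial or epithelial markers with a named probe set, 3, 5 and 1 lay under the floor on both arrays. Their summed signals were 425, 450 and 1076 in CD103+ Th1 and 311, 769 and 1134 in Th1. In these lists Cd68 was 2.25-fold lower in CD103+ Th1 and Krt18 at least 2.91-fold lower, and Cd79b was at least 3.11-fold higher. The CD8 genes were higher in CD103+ Th1, Cd8a 4.41-fold and Cd8b1 2.28-fold, and the 5 CD8 T and NK cell markers summed to 6981 and 3361. The 5 measured Cd8a probe sets had log2 ratios from 0.24 to 2.16, with a mean of 1.63. The part of other cells in the Armcx signals was not tested.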

How the data were processed

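Trizol-extracted RNA carried a biotin label, per the labels' protocols. The deposited values are signal intensities per probe set on a linear scale, made by the authors with the Affymetrix GCOS software per the submitters' processing notes. Its version, scaling target and filters are not given in the sources used here. Median signals were 78.0 and 78.8 and 2% trimmed means 498 on both arrays, so no further scaling was applied.

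Values under the floor of 78.5 were set to it. Ratios were taken only where at least 1 array exceeded it, and they are bounds where the other did not. Probe sets with 1 gene symbol (34945) were named through the platform annotation, updated by gene identifier to GRCm38.p6 (34741 matched). The measured probe set brightest on average (log2) stood for its gene. Scripts used Python 3.11.15, and the calls were tested on simulated data.

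No test was possible with a single array in each group. The members and lists were chosen with earlier results of these data known. Besides all members, the text names per list up to 4 genes with the largest ratios in either direction and the measured neighbours. Rhot1, Rhot2, Trak1, Trak2, Ctnnb1, Xist, the Y-linked genes, Gprasp2, the markers and the genes of the wider X stretch were named after their values were seen. The alternatives were other scalings, floors, thresholds and probe sets, with a pseudocount equal to the 25th percentile in place of the floor.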

Additional observations from a re-analysis of the deposited data

How the results depend on the processing

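With the floor at the 75th percentile, 1 Armcx probe set and 1 Armcx gene were at least 2-fold lower, since Armcx1 moved to -0.25 and the 1415780_a_at probe set of Armcx2 to -0.85, and Armcx5 and Armcx6 lay under that floor on both arrays. A threshold of 1.5-fold gave 5 Armcx genes and 6 probe sets, and one of 4-fold gave 1 of each. Under the other alternatives run, the counts were 4 probe sets and 3 genes. Every member kept its direction wherever it was measured. Over all genes, 564 were at least 2-fold higher and 545 lower. These counts were 974 and 1206 with the floor at the 25th percentile, 267 and 199 at the 75th, and 855 and 992 with the pseudocount. They were 1391 and 1499 at 1.5-fold and 108 and 86 at 4-fold. For probe sets, 1263 higher and 941 lower became 2494 and 2549, 459 and 295, 2160 and 2134, 3320 and 2795, and 206 and 130 in the same order. Leaving out _s_at and _x_at probe sets, chosen after seeing the data, removed Armcx5 and gave -1.88 for Armcx2. No paired analysis was possible because each group has 1 array.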

Other observations

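The 46 promoters with TGACG starting 10 to 16 bases before CACGTG belonged to 43 genes. Of these promoters, 32.6% were on the X chromosome, which holds 3.72% of the promoters of the table. The pattern was read from X-linked Armcx promoters that are counted here, so part of the 32.6% was fixed beforehand. Of the 13 X-linked genes, 3 were Armcx genes and 8 were Bex or Tceal genes. The remaining 2 were Gla, which encodes α-galactosidase A, and the long non-coding RNA gene B230119M05Rik. The spans of B230119M05Rik, 134684562-134686462, and Armcx4, 134685650-134697775, overlap, so these 2 genes are not separate in position. The span of B230119M05Rik ends inside the printed stretch of Armcx4, 134686419-134686538. Whether 1 pair was counted for both genes was not tested. Some of the 13 X-linked genes have several promoters in the table, and related genes share sequence, so the promoters are not independent. Outside the Armcx family, 23 genes with the pair were measured. Their median log2 ratio was -0.17, and 16 of the 23 were below 0, as were 5885 of all 11194 measured genes. Past 2-fold, 1 was lower, namely Bex1, and 0 were higher, beside shares of 4.87% and 5.04% over all measured genes. Among those on other chromosomes, the largest ratios in either direction, named after their values were seen, were those of the ubiquitin ligase gene Marchf8 at -0.95 (106 against 204), Coq10b at 0.76 (706 against 416), the nuclear pore gene Nup54 at -0.60 (1644 against 2487) and Sde2 at -0.58 (1025 against 1536). These genes were chosen by a pattern read from the Armcx promoters, and nothing about a factor or a cause was tested.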
